A study of Mus musculus with 35 samples.

Results

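RNA from the mouse mammary gland epithelial line NmuMG was compared between cells kept with a c-Jun N-terminal kinase (JNK) inhibitor and cells kept with its solvent DMSO, at 48 h. The comparison held 4 libraries: DMSO replicates 1 and 2 and inhibitor replicates 1 and 2, with each difference taken between libraries of the same replicate number. It covered 12319 of the 20261 genes in the deposited table, those with a mean of at least 10 normalized reads in either group. Il2ra, with a larger group mean of 10.0, lay just inside that limit, and 1700034F02Rik, with 9.95, just outside it. Of the 7942 genes left out, 3813 were listed at 0 in all 4 libraries.

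The labels call the inhibitor JNKi and give neither compound nor dose. Both groups share the strain label E9 and the genotype label WT. The protocol given to every sample describes TGF-β at 2 ng/ml, renewed with fresh medium every 2 days. No sample is labelled as a 48 h arm without TGF-β. All values therefore come from 1 cell line, and the JNKi effect is an effect of 1 inhibitor as labelled. The same experiment holds DMSO and JNKi at 24 h, 72 h, 96 h and 7 d, with 2 libraries in each of its 10 groups, and these 20 libraries were fitted together. Separate cultures are not stated for the replicates, and the spread behind the p-values may therefore be technical. In the main fit that spread is the variation of the same-number differences, pooled over all times. The alternative fit, which ignores replicate numbers, covers the spread between libraries.

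JNK is a stress-activated protein kinase. Upstream kinases activate it, scaffold proteins hold the cascade together, and the active kinase phosphorylates Jun and related factors, whose dimers (AP-1) bind DNA and drive or restrain transcription. TGF-β turns on JNK beside the SMAD proteins, and in mammary epithelial cells it starts the epithelial-mesenchymal transition, in which junctions are lost and matrix and contractile genes are gained. An inhibitor of the kinase acts on the protein, so transcript levels of the kinases themselves do not show whether it was blocked.

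Few genes separated the arms at 48 h, and those that passed in the main fit were higher with the inhibitor. The median log2 change over the 12319 genes was -0.005, and 90% of genes lay between -0.27 and 0.33. With the replicate number as a block within each time, 15 genes passed the test (limma, Benjamini-Hochberg adjusted p under 0.05 over 13896 genes), 0.108% of those tested and 0.122% of the 12319. All 15 rose and 0 fell, while edgeR and DESeq2 on the recovered reads called 1 and 4 genes lower. Without the block 0 genes passed, and the adjusted p of those 15 genes ranged from 0.204 to 1. At an unadjusted p under 0.05, limma counted 1282 genes (9.23%) with the block and 521 (3.75%) without it. With the block, 483 of the 12319 were higher at that unadjusted p and 636 lower, so the single direction belongs to the adjusted calls.

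The block is therefore what the 15 calls rest on. The labels do not say that a replicate number marks a shared culture or day. Across 9605 well-read genes, the difference between replicates 1 and 2 in the DMSO arm correlated with that in the JNKi arm at 0.591 at 48 h. For the other times, in order, it was 0.726, 0.723, 0.527 and 0.072. These correlations run across genes of the same libraries and carry no test. Both JNKi libraries exceeded both DMSO libraries in 13 of the 15 genes and in 1683 (13.7%) of the 12319. The test itself favours such genes, so nothing is read from the 13. edgeR called 9 of the 15 and DESeq2 called 10. Tdpoz4, Ces2e, Gm10696, Hist2h3c1 and Hist1h4i were called by neither tool, and Mybpc3 by DESeq2 only. Leaving out replicate 2 of DMSO or of JNKi, which leaves only the replicate 1 pair, gave 0 calls. Leaving out DMSO replicate 1 gave 27 and leaving out JNKi replicate 1 gave 28, of which 7 were among the 15.

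The 2 pairs often differed in direction. Of the 12319 genes, 3355 (27.2%) were higher with JNKi in both pairs, 3595 (29.2%) were lower in both, and 5369 (43.6%) went opposite ways or were equal. The 2 within-pair differences correlated at 0.25 across the 9605 well-read genes at 48 h, against 0.429, 0.604, 0.389 and 0.661 for the other times in order. This is again a description across genes.

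**Figure D1:**
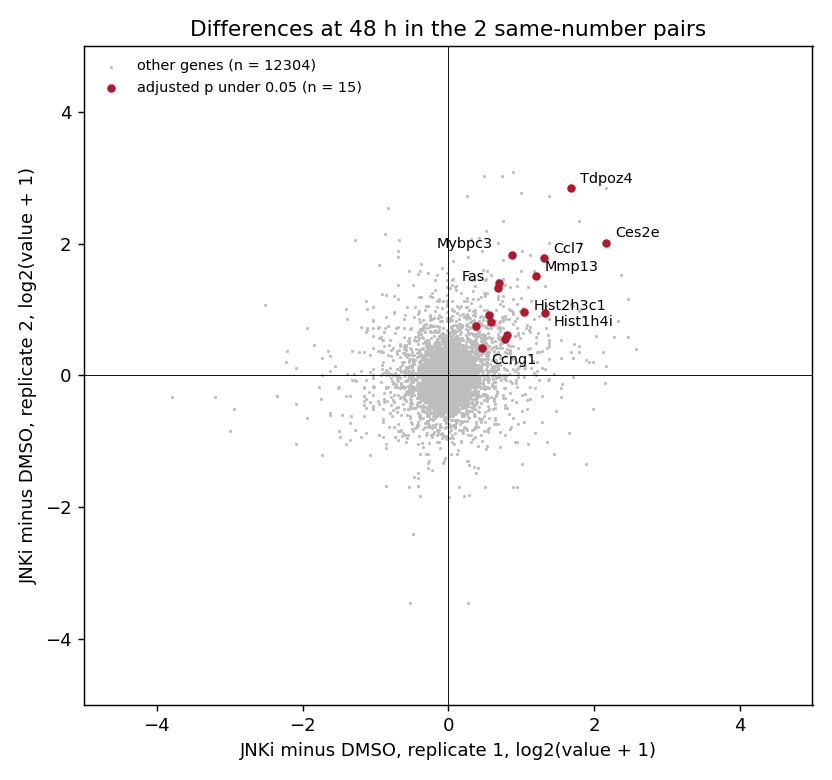
Each point is 1 of the 12319 genes, with the JNKi minus DMSO difference on the log2(value + 1) scale in replicate 1 on the x axis and in replicate 2 on the y axis. The 15 genes with adjusted p under 0.05 (red) all lie at the upper right, while the other 12304 genes (grey) form a cloud around 0.

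Among the genes that rose were a matrix protease and a pair of chemokines. Mmp13, collagenase 3, a matrix metalloprotease that cleaves fibrillar collagen, read 53.7 and 75.5 normalized reads in DMSO replicates 1 and 2 and 124.5 and 216.5 in the JNKi replicates. Both JNKi libraries were above both DMSO libraries, and the highest value was in JNKi replicate 2. The log2 change was 1.35 (SE 0.18), 2.55-fold, with an adjusted p of 0.0257 in limma with the block and 0.204 without it. Ccl7, a chemokine that attracts monocytes, read 43.2 and 76.9 with DMSO and 108.9 and 267.5 with JNKi. Its groups did not overlap either, and its log2 change was 1.55 (SE 0.23; limma adjusted p 0.0267 with the block, 0.487 without).

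Ppbp, a platelet-type CXC chemokine, read 632.5 and 428.8 with DMSO and 947.6 and 755.3 with JNKi. Replicate 2 was the lower library in both arms, and the groups did not overlap. The log2 change was 0.70 (SE 0.11; limma adjusted p 0.0267 with the block, 1 without). Mmp10, stromelysin 2, a metalloprotease with broad matrix substrates, had values of 119.0 and 229.4 with DMSO and 221.3 and 393.2 with JNKi. It did not pass the test (limma adjusted p 0.0919), and DMSO replicate 2 exceeded JNKi replicate 1. On the recovered reads edgeR called Mmp10 higher (edgeR adjusted p 0.0440) and DESeq2 did not.

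The 250 bases before the annotated start of Mmp13, Ppbp and Mmp10 are shown because each holds the AP-1 sequence TGANTCA, in capitals, which Jun-containing dimers are known to bind. The windows come from RefSeq on GRCm38.p6, all on the plus strand and written 5′ to 3′: chr9:7272264-7272513 for Mmp13, chr5:90768268-90768517 for Ppbp and chr9:7502092-7502341 for Mmp10.
Mmp13: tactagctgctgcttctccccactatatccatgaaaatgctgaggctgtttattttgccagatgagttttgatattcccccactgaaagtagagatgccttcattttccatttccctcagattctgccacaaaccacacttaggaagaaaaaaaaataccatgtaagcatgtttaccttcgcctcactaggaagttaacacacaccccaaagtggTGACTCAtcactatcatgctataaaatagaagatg
Ppbp: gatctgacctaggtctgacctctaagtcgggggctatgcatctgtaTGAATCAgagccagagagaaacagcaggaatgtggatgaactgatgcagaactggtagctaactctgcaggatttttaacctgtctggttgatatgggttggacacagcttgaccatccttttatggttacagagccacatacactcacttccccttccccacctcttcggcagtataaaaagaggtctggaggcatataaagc
Mmp10: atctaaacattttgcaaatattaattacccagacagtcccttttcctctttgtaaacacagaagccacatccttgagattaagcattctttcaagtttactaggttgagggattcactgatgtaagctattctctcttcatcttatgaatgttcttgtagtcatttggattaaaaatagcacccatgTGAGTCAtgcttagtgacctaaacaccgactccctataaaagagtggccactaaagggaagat
The motif began 35 bases upstream of the start in Mmp13, 204 bases upstream in Ppbp and 63 bases upstream in Mmp10. TGANTCA occurred, on either strand, in 6.75% of 32851 RefSeq windows of the same 250-base length. Of the 15 genes that rose, 13 had a window in the table and 3 of those held the motif: Mmp13, Ppbp and Fas. The cAMP-response-type sequence TGACGTCA, which Jun-ATF dimers bind, was in 0 of the 13 windows and in 1.55% of all windows. The NF-kB consensus was in 0 of the 13 and in 3.9% of all windows. A match is a description of the letters only, and no binding was measured.

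In the p53 response, 2 genes rose. Ccng1, cyclin G1, a p53 target that acts in feedback on p53, read 5649 and 5089 with DMSO and 7814 and 6822 with JNKi. The within-pair differences were nearly equal, 0.47 and 0.42 on the log2 scale, and the groups did not overlap. The log2 change was 0.45 (SE 0.06), 1.36-fold, with an adjusted p of 0.0257 in limma with the block and 0.591 without it. Fas, a death receptor of the TNF receptor family, read 95.7 and 59.8 with DMSO and 153.9 and 151.8 with JNKi. The 2 JNKi values were close together and above both DMSO values. Its fold was 2.01 (limma adjusted p 0.0310 with the block, 0.754 without).

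The upstream windows of Ccng1 and Fas are shown because each holds 1 of the sequences searched for. Capitals mark a half-site of the p53 consensus in Ccng1 and the AP-1 sequence TGANTCA in Fas. They come from RefSeq on GRCm38.p6, chr11:40755287-40755536 on the minus strand for Ccng1 and chr19:34290409-34290658 on the plus strand for Fas, both written 5′ to 3′ along the gene.
Ccng1: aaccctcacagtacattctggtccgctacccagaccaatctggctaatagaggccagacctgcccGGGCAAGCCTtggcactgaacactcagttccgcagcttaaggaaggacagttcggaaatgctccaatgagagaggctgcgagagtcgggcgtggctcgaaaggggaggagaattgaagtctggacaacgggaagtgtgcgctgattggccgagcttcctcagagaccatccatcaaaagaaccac
Fas: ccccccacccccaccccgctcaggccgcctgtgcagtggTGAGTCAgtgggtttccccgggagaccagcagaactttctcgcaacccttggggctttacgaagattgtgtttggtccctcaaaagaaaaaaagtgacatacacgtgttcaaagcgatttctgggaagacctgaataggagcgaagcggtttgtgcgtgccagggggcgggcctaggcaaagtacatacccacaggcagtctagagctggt
The p53 half-site began 185 bases upstream of the Ccng1 start, and the AP-1 sequence 211 bases upstream of the Fas start. The p53 half-site, searched on both strands, was in 7.13% of the 32851 windows and in 4 of the 13 windows of genes that rose: Ccng1, Mmp13, Nppb and Hist1h4i. A full p53 site consists of a pair of such half-sites, which was not searched for here.

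Among histone genes, 3 rose. Hist1h1c, a linker histone H1, read 537.9 and 889.0 with DMSO and 925.1 and 1307.7 with JNKi, a fold of 1.59 (SE of the log2 change 0.11; limma adjusted p 0.0290 with the block, 1 without). JNKi replicate 1 exceeded DMSO replicate 2 only slightly, so the separation rests on the pairs. Hist2h3c1, an H3 gene, read 49.0 and 72.7 with DMSO and 102.0 and 143.1 with JNKi (limma adjusted p 0.0361 with the block, 1 without). Hist1h4i, an H4 gene, read 18.7 and 29.9 with DMSO and 48.4 and 58.5 with JNKi (limma adjusted p 0.0436 with the block, 0.467 without). All 3 genes had both JNKi libraries above both DMSO libraries. On the recovered reads, edgeR and DESeq2 each called Hist1h1c but not Hist2h3c1 or Hist1h4i. Histone genes have near-identical copies. How the counting split reads between copies is not known here, and the value of any single histone gene is uncertain.

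Tdpoz4 and Gm10696, genes of a multicopy family on chromosome 3 that encodes BTB-domain proteins, also rose. Tdpoz4 read 4.7 and 1.4 with DMSO and 17.3 and 16.2 with JNKi, which are 5 reads against 23 in all, and it met the limit of 10 at 48 h only in the JNKi arm. The ratio of these read sums, scaled for depth, was 5.19 with an exact 95% interval from 1.93 to 17.47 that covers counting error only. Gm10696 read 95.7 and 41.3 with DMSO and 155.6 and 110.7 with JNKi, a fold of 2.07. The limma adjusted p was 0.0267 for Tdpoz4 and 0.0362 for Gm10696 with the block, and 0.245 and 0.948 without. Neither edgeR nor DESeq2 called Tdpoz4 or Gm10696. As for the histones, close copies make the single values uncertain.

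The other 5 genes that rose share no list. Mybpc3, cardiac myosin-binding protein C, a sarcomere protein, read 31.5 and 24.2 with DMSO and 58.8 and 88.3 with JNKi (log2 change 1.35, SE 0.22; limma adjusted p 0.0322 with the block, 1 without). Nppb, which encodes brain natriuretic peptide, read 341.9 and 927.5 with DMSO and 598.3 and 1423.5 with JNKi, and Lce1g, a late cornified envelope protein of the epidermis, read 1224.1 and 2231.1 with DMSO and 1596.1 and 3773.9 with JNKi. In both genes the arms overlap, because replicate 2 was higher than replicate 1 by more than the arms differ. Their limma adjusted p values with the block were 0.0361 and 0.0436, and both were 1 without it.

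Ces2e, a carboxylesterase, read 2.3 and 1.4 with DMSO and 13.8 and 8.7 with JNKi. That is 3 reads against 15, a depth-scaled ratio of 5.64 with an exact 95% interval from 1.60 to 30.39 for counting error only. It too met the limit of 10 at 48 h only in the JNKi arm. Gm7102, a predicted gene, read 164.5 and 138.2 with DMSO and 242.1 and 261.3 with JNKi, with no overlap and a fold of 1.66. Its limma adjusted p was 0.0267 with the block and 0.591 without, the same pair of values for Ces2e being 0.0267 and 0.204.

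Just beyond the threshold stood Btg2, an antiproliferative p53 target and immediate-early gene, and Acta2, smooth muscle actin, a marker of contractile mesenchymal cells. Btg2 had 1856.6 and 2292.3 normalized reads with DMSO and 2484.9 and 2844.4 with JNKi (limma adjusted p 0.0503). Acta2 had 327.9 and 475.8 with DMSO and 536.1 and 1006.6 with JNKi (limma adjusted p 0.0531). Both were without overlap between arms, and neither passed in limma. On the recovered reads DESeq2 called Btg2 higher (DESeq2 adjusted p 0.0444) and edgeR did not, and neither tool called Acta2.

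The genes with the largest lower values in both pairs did not pass the test either. Adamtsl2, a secreted protein that binds fibrillin microfibrils, came nearest, with 161.0 and 296.3 normalized reads with DMSO and 88.2 and 136.9 with JNKi. Both JNKi values were below both DMSO values, with a log2 change of -0.98 (SE 0.18; limma adjusted p 0.0531 with the block, 0.948 without). edgeR and DESeq2 on the recovered reads each called it lower. Pdgfrb, the PDGF receptor β of mesenchymal cells, read 221.7 and 366.1 with DMSO and 153.9 and 232.7 with JNKi. DMSO replicate 1 lay below JNKi replicate 2, and the limma adjusted p was 0.239.

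Of the 6 others chosen by the same rule, Sh3tc2, Oasl1, Gm3002, Man1c1, Mfsd4 and Arntl2 had log2 changes from -0.62 to -0.46, and their limma adjusted p values ran from 0.192 to 0.483. Prnd, the prion-like protein doppel, was among the largest in the upward direction, with 45.5 and 51.3 normalized reads with DMSO and 93.4 and 105.8 with JNKi. Its groups did not overlap, and its limma adjusted p was 0.0563.

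**Figure D2:**
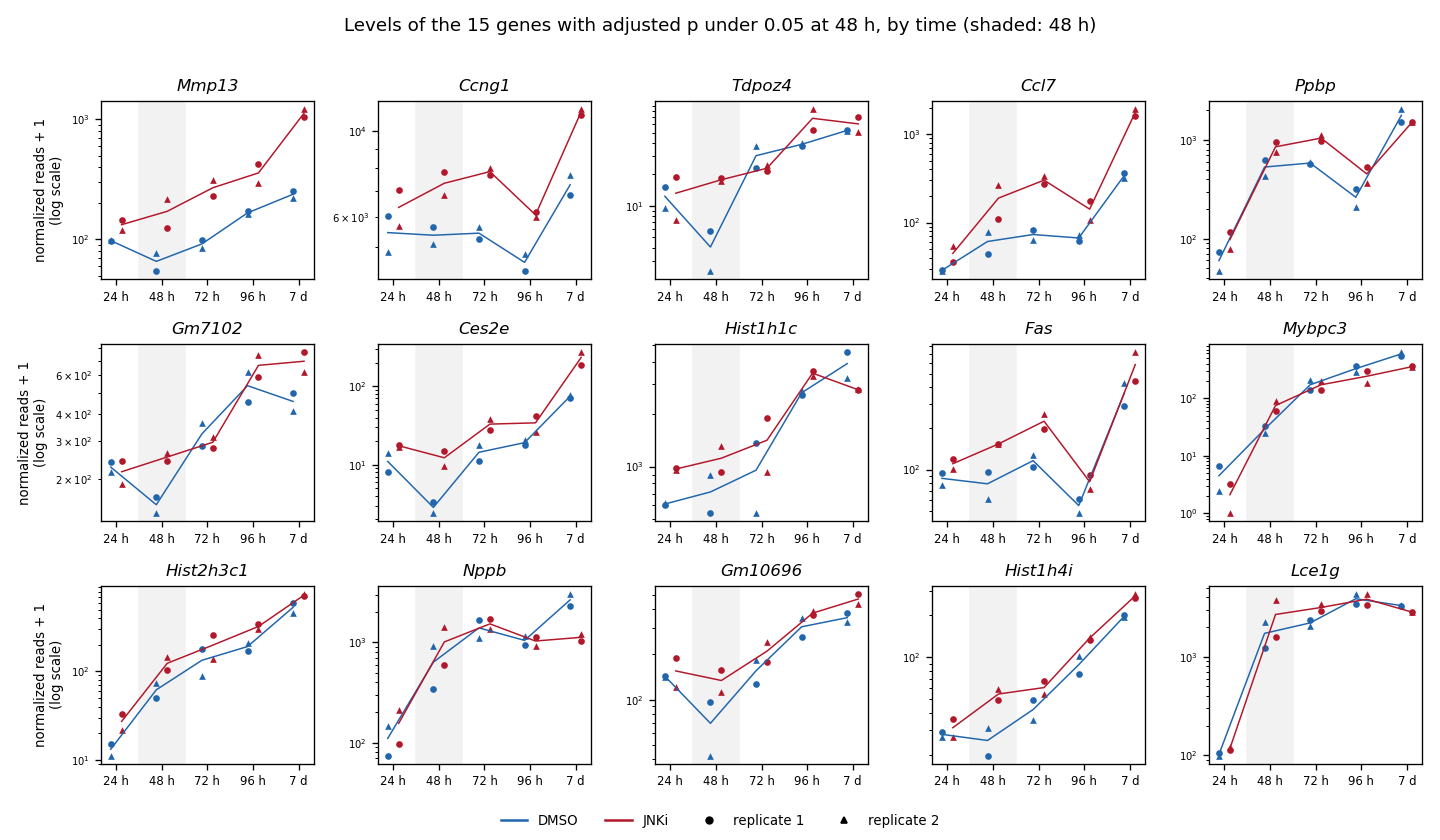
Normalized reads plus 1 (log scale) of the 15 genes by time, with DMSO in blue and JNKi in red, circles for replicate 1, triangles for replicate 2 and lines through the means. At 48 h (shaded) both JNKi points lie above the DMSO point of the same replicate number in all 15 panels, and Ces2e and Tdpoz4 show the lowest levels.

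Most of the 15 genes were also higher with JNKi at other times, which use other libraries. In order of time (24, 72 and 96 h, then 7 d), 12, 13, 12 and 10 of the 15 had a positive log2 change. Over the 12319 genes the share with a positive change was 49.2%, 49.4%, 49.9% and 49.2% in the same order. The median of the 15 was 0.36, 0.53, 0.58 and 0.47. With the block, limma called 3, 7, 3 and 6 of them higher, where it called 0.115%, 0.914%, 0.317% and 12% of all 13896 genes higher. It called 0, 0, 0 and 3 of them lower, where it called 0.0216%, 1.49%, 0.396% and 13.3% of all genes lower. In both directions together these calls made up 0.137%, 2.40%, 0.712% and 25.3% of all genes. Without the block, 0, 2, 0 and 5 of the 15 were called higher and 0 lower, and the calls over all genes were 0%, 0.0720%, 0.00720% and 10.2%. The joint fit gives each gene a spread shared by all times, with an SE of 0.18 for Mmp13 at every time. Genes that passed at 48 h can thus pass more easily elsewhere. Their counts of calls at other times are not independent of that selection.

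Mmp13 kept its direction at every time, with log2 changes of 0.43, 1.54, 1.08 and 2.24 at the 4 other times. Its DMSO level moved from 95.6 and 98.0 normalized reads at 24 h to 53.7 and 75.5 at 48 h, while the JNKi libraries held 145.1 and 118.2 and then 124.5 and 216.5. Ccng1 was higher with JNKi at the 4 other times too, by log2 0.22, 0.53, 0.41 and 0.63.

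The effect on Mybpc3 changed with time. It was the 1 gene of 13896 (0.00720%) whose 48 h effect differed from the mean effect at the other 4 times (limma adjusted p 0.0192 with the block, 0.9997 without), with 8.53% of genes at an unadjusted p under 0.05. Its normalized reads were 5.6 and 1.4 with DMSO and 2.2 and 0 with JNKi at 24 h, 31.5 and 24.2 against 58.8 and 88.3 at 48 h, and 138.3 and 202.2 against 140.1 and 200.3 at 72 h. The JNKi libraries were thus below the DMSO libraries of their number at 24 h, above them at 48 h and close to them at 72 h. The 24 h values rest on few reads. Against 24 h alone, the 48 h effect differed for 3 genes (0.0216%): Mybpc3, Hspg2 and Celsr2. Against 72 h alone it differed for 0 genes in limma with the block, with 727 (5.23%) at an unadjusted p under 0.05.

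The p53 list followed the direction of Ccng1 and Fas. All gene lists were chosen with earlier results of these data known, and their counts carry no test. Of its 30 measured genes, 21 were higher with JNKi in both pairs and 4 lower in both, beside 27.2% and 29.2% of all genes. The median log2 change was 0.14, beside -0.005 for all genes, and 2 genes passed the test, Ccng1 and Fas. At an unadjusted p under 0.05, 14 were higher and 0 lower, against 3.92% and 5.16% of all genes. These shares, and 0.122% for genes that passed, stand beside the counts of every list below too. Cdkn1a, the p21 inhibitor of cyclin-dependent kinases, had 4524.1 and 4039.0 normalized reads with DMSO and 5640.7 and 5608.0 with JNKi. Both JNKi values were above both DMSO values, and it did not pass (limma adjusted p 0.189).

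Mdm2, the ubiquitin ligase that degrades p53, had 74598 and 83416 normalized reads with DMSO and 85871 and 103792 with JNKi, a log2 change of 0.26 (SE 0.11; limma adjusted p 0.462). Bcl2l15, a BCL2-family gene, had 61.8 and 45.6 with DMSO and 93.4 and 133.1 with JNKi (limma adjusted p 0.0922). Ddb2, a damage-recognition gene of the same list, had the lowest log2 change, -0.25. Cdkn1a and Ddb2 were named after their values were seen. The list median at the other times was 0.04, 0.21, 0.08 and 0.15 in order of time.

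The NF-kB list of cytokines and chemokines had 25 measured genes. Of these, 18 were higher in both pairs and 1 lower in both, beside 27.2% and 29.2% of all genes. Its median log2 change was 0.17, and 1 gene passed the test, Ccl7. At an unadjusted p under 0.05 in limma, 9 were higher and 0 lower, against 3.92% and 5.16% of all genes. The median difference was 0.19 in the replicate 1 pair and 0.38 in the replicate 2 pair. Cxcl1, a neutrophil-attracting chemokine named after its values were seen, had 668.6 and 843.4 normalized reads with DMSO and 847.3 and 1297.8 with JNKi (limma adjusted p 0.0637). Csf2, the cytokine GM-CSF, had 78.2 and 202.3 with DMSO and 115.9 and 302.4 with JNKi, with replicate 2 the higher in both arms. Ptgs2, the prostaglandin-forming cyclooxygenase 2, had a log2 change of 0.16 (limma adjusted p 0.666). The list median at the other times was 0.13, 0.44, 0.16 and 0.08 in order of time.

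Leukocyte markers were set beside this list. Their summed level was 1610.4 and 1628.3 normalized reads with DMSO and 1744.7 and 1878.9 with JNKi, higher in both JNKi libraries. Of 11 such genes in the table, 3 met the limit of 10, Cd14, Csf1r and Cd68, all 3 higher in both pairs and none called. Cd3e, Emr1, Tyrobp and Cd52 were at 0 in all 4 libraries, and Ptprc, which defines leukocytes, read 2.3, 1.4, 6.9 and 2.5. A change in the number of cells of a type and a change in RNA per cell cannot be told apart in these bulk samples.

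The extracellular matrix list went the other way. Of its 29 measured genes, 2 were higher in both pairs and 19 lower in both, beside 27.2% and 29.2% of all genes. The median log2 change was -0.21. No gene of the list passed the test. At an unadjusted p under 0.05 in limma, 0 were higher and 10 lower, against 3.92% and 5.16% of all genes. Fn1, fibronectin, had 282031 and 303020 normalized reads with DMSO and 255637 and 223496 with JNKi, with both JNKi libraries below both DMSO libraries (log2 change -0.29, SE 0.14; limma adjusted p 0.545). Lama5, the laminin α5 chain of basement membranes, had 30710 and 29873 with DMSO and 25919 and 24561 with JNKi. Its groups did not overlap, and its log2 change was -0.26 (SE 0.07; limma adjusted p 0.227). DESeq2 on the recovered reads called Lama5 lower.

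Col5a1, a fibrillar collagen chain, had 288.2 and 349.1 normalized reads with DMSO and 250.7 and 226.5 with JNKi (limma adjusted p 0.371). The list median was 0.13, -0.35, -0.32 and -0.43 at the other times in order, so the sign at 48 h was that of the later times. For Hspg2, perlecan, the difference between 48 h and 24 h passed the test: its log2 change was 0.56 at 24 h and -0.27 at 48 h. Fibroblast markers, which share Col1a1 with this list, summed to 1658.2 and 2097.1 with DMSO and 1367.8 and 1831.6 with JNKi. Their 4 measured genes, Pdgfra, Pdgfrb, Col1a1 and Fbln1, were all lower in both pairs, while Dcn and Lum, which define fibroblasts, were at 0 in all 4 libraries.

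**Figure D3:**
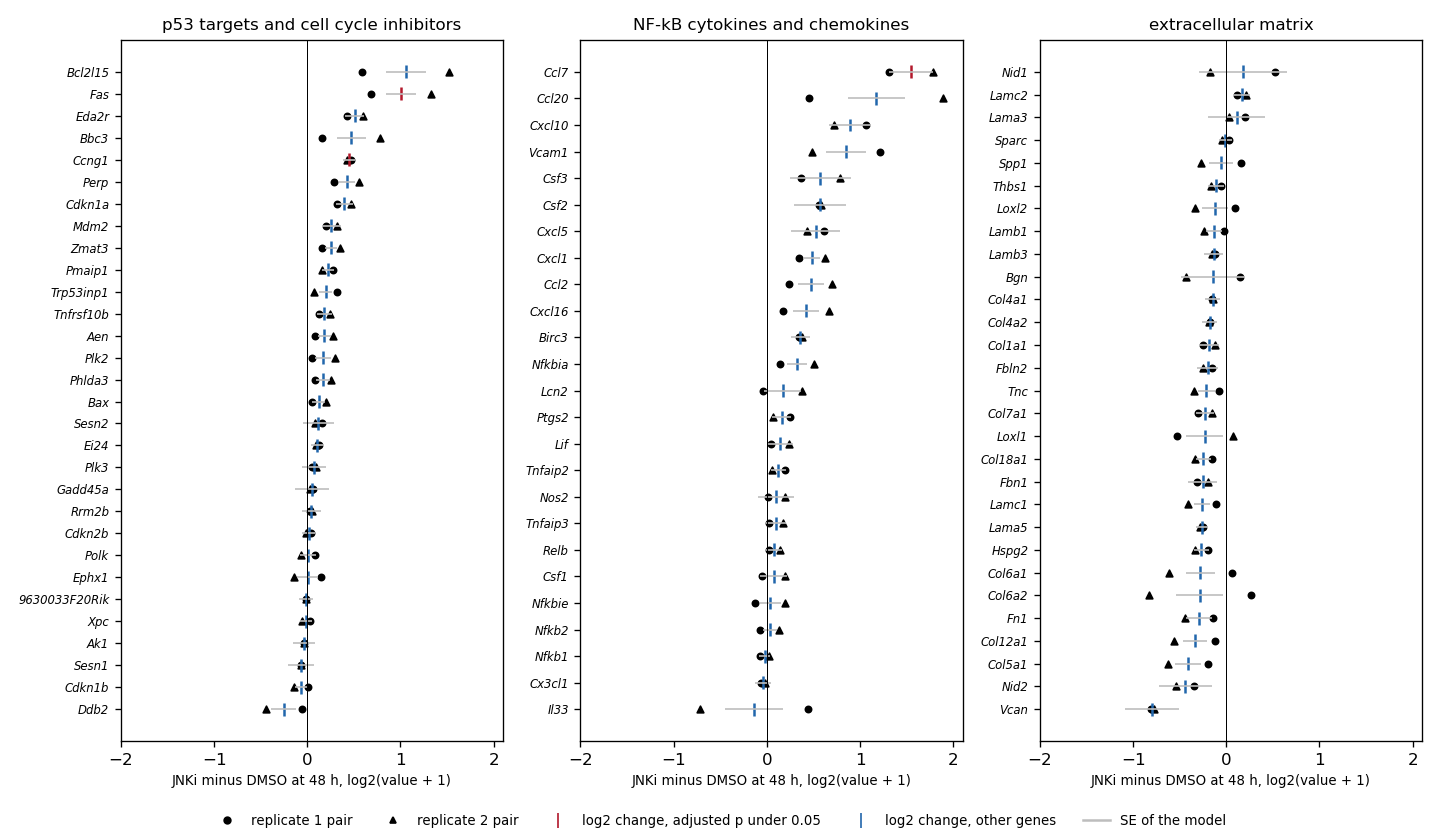
JNKi minus DMSO at 48 h on the log2(value + 1) scale for the measured genes of 3 lists, with circles for the replicate 1 pair, triangles for the replicate 2 pair, bars for the fitted log2 change (red where adjusted p is under 0.05) and grey lines for its SE. Most of the p53 and NF-kB genes lie to the right of 0 and most of the matrix genes to the left, and only Fas, Ccng1 and Ccl7 are red.

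Among matrix proteases and their inhibitors, 9 of 18 measured genes were higher in both pairs and 3 lower in both, with a median of 0.10 and Mmp13 as the 1 gene that passed. Mmp2 was among the 18 only through the JNKi arm. The cornified envelope list, barrier proteins of stratified epithelium, had 10 measured genes with a median of 0.22, of which 6 were higher in both pairs and 1 lower in both. None of them passed, but the list leaves out Lce1g, a late cornified envelope gene that did. Sprr1a, a small proline-rich cross-linked protein, had 203.0 and 149.6 normalized reads with DMSO and 349.3 and 216.5 with JNKi, with no overlap (limma adjusted p 0.109).

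In the kinase pathway itself 0 genes were called, which is no result about it, since 0.122% of all genes were. The same holds for the other lists with 0 calls. Of 24 measured genes of the JNK cascade, 3 were higher and 8 lower in both pairs, with a median of -0.08. Mapk8, which encodes JNK1, had 811.0 and 890.4 normalized reads with DMSO and 856.0 and 897.1 with JNKi, and Mapk9, which encodes JNK2, had 2380.5 and 2409.2 against 2389.8 and 2374.1. Their log2 changes were 0.04 (SE 0.09) and -0.01 (SE 0.06), smaller than their errors. Of the 14 measured AP-1 family genes, 6 were higher in both pairs and 2 lower in both, with a median of 0.03.

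Jun itself had 2092.3 and 2310.9 normalized reads with DMSO and 2254.9 and 2613.0 with JNKi. The arms overlapped, and the log2 change was 0.14 (SE 0.08; limma adjusted p 0.622). Fosb, an immediate-early partner of Jun, had 189.0 and 521.4 with DMSO and 207.5 and 601.0 with JNKi, so the replicates of each arm differed far more than the arms.

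Defining genes of the epithelial-mesenchymal transition were read one by one. Cdh1, E-cadherin, had 9069 and 9622 normalized reads with DMSO and 8779 and 8043 with JNKi, a log2 change of -0.15 (SE 0.09). Cdh2, N-cadherin, had a log2 change of -0.04 (SE 0.08), and Vim, vimentin, one of -0.03 (SE 0.09). None of the 3 passed in limma, with adjusted p values of 0.640, 0.921 and 0.939. The 7 measured EMT transcription factors had a median of -0.16, with 0 higher and 4 lower in both pairs. Zeb2, a repressor of Cdh1, had 1263.8 and 1560.0 with DMSO and 1191.4 and 1312.7 with JNKi (limma adjusted p 0.561).

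The epithelial junction list had 24 measured genes, 4 higher and 10 lower in both pairs, and the mesenchymal list 21, with 3 higher and 8 lower. Both medians were -0.07, and neither list had a called gene. Of the 29 measured genes of TGF-β signalling, 9 were higher and 12 lower in both pairs, with a median of -0.02. Id2, an inhibitor of basic helix-loop-helix factors in that list, had 1166.9 and 679.6 normalized reads with DMSO and 1571.8 and 1036.5 with JNKi. Replicate 1 exceeded replicate 2 in both arms, so the arms overlapped (limma adjusted p 0.239).

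The proliferation lists had medians that turned sign between the pairs. Of 30 measured G2/M genes 1 was higher and 12 were lower in both pairs, with a median of -0.02. The medians of the 2 pairs were -0.08 and 0.03. For 37 DNA replication genes the pair medians were -0.13 and 0.09. Ribosomal protein genes had 24 of 38 higher and 0 lower in both pairs, at a median of 0.07 and with 0 called.

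**Figure D4:**
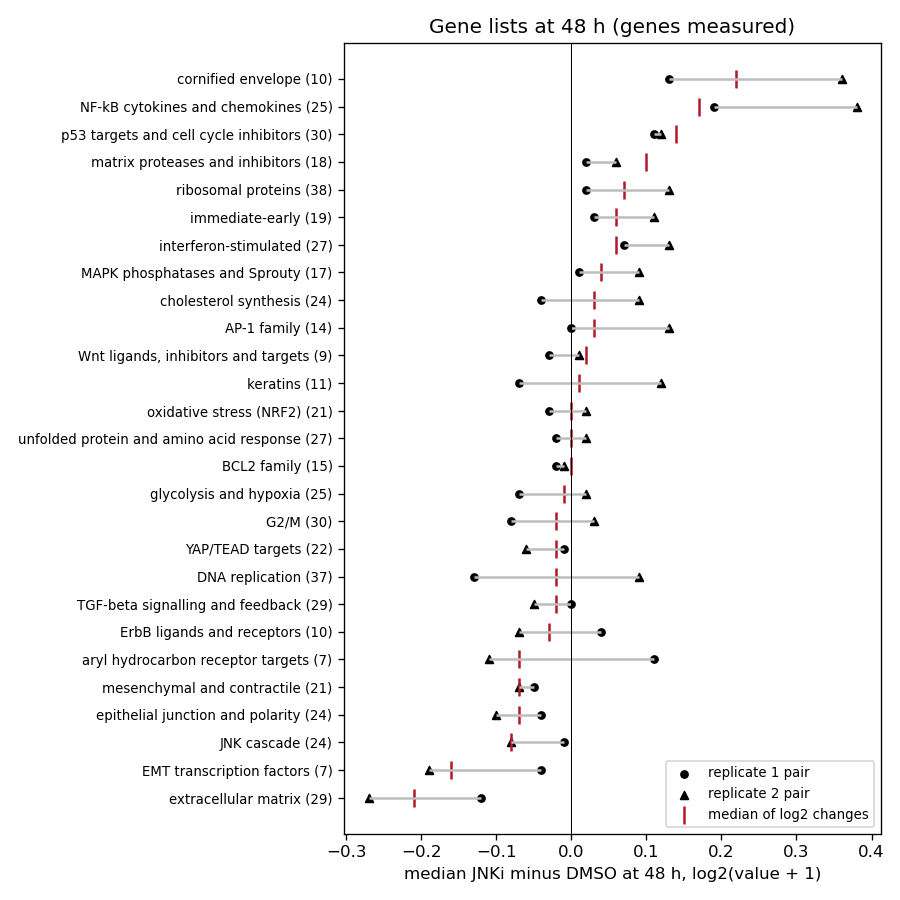
Median JNKi minus DMSO difference at 48 h on the log2(value + 1) scale for 27 gene lists, with the number of measured genes in brackets, circles for the replicate 1 pair, triangles for the replicate 2 pair and a red bar for the median of the fitted log2 changes. The cornified envelope, NF-kB and p53 lists stand at the upper end at 0.22, 0.17 and 0.14, and the extracellular matrix list at the lower end at -0.21.

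The vehicle's own course between 24 h and 72 h, whose means use no 48 h library, was set beside the 48 h comparison after the data were seen. In limma with the block, 3815 of the 12319 genes (31.0%) rose in DMSO from 24 h to 72 h and 3772 (30.6%) fell. The spread in that fit, pooled over all 20 libraries, leaves out replicate differences that the arms share. A comparison between times still holds those differences, so these counts may be too high. They were not counted without the block. Of those that rose, 20.2% were higher with JNKi in both pairs at 48 h and 40.8% lower in both, and of those that fell 33.3% were higher and 20.7% lower. The median log2 changes at 48 h were -0.045 and 0.022. Among genes that moved at least 2-fold the shares were 27.1% higher and 33.9% lower for 874 that rose, and 27.5% and 25.4% for 469 that fell. Of the 15 genes that passed at 48 h, 11 were among those that rose in the vehicle and 0 among those that fell.

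The epithelial label was checked on its markers. Krt8, Krt18, Krt19, Krt7 and Cdh1 were read at 8043 or more in all 4 libraries. Epcam was listed at 0 in all 4, Cldn7 at 0 to 4.3 and Prom1 at 0 to 2.3, so these markers were absent or nearly so in both arms. Endothelial markers summed to 564.9 and 609.7 normalized reads with DMSO and 624.2 and 593.5 with JNKi, with Tie1, Emcn and Cldn5 at 0, and adipocyte markers to 16.3 and 12.8 against 6.9 and 11.1. The 4 libraries held 25.5 and 21.6 M reads with DMSO and 17.1 and 24.5 M with JNKi, and the JNKi replicate 1 library was the shallowest. Replicates of both arms differed by more than counting noise: the chi-square divided by its degrees of freedom was 7 for DMSO and 10.3 for JNKi.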

How the data were processed

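RNA sequencing libraries were grouped by their titles. Per the submitters' processing notes, the tools were TopHat, HTSeq and DESeq on build mm9. Versions, filters and the strand setting were not given in the sources used, which leaves overlapping, antisense and near-identical genes uncertain. The values deposited by the authors are a signal, read counts normalized per library and written to 1 decimal. Dividing by the step of the low values recovered whole reads (at least 99.975% of values within 0.1 of a whole number), 9.5 to 48.6 M per library, and precision follows that depth. The deposited time-course table could not be read by library and was not used.

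The log2 of the value plus 1 was fitted with limma 3.58.1 (R 4.3.3) over all 20 libraries, with an intensity trend, 1 mean per group and the replicate number as a block within each time, for the 13896 genes whose mean reached 10 in 1 or more groups. This left 5 residual degrees of freedom, 10 without the block. Tests were two-sided with Benjamini-Hochberg adjustment and a threshold of 0.05. Fold changes on this scale understate low genes. The block was made the primary choice because differences are taken within replicate numbers; it was made when earlier results, with 15 calls with the block and 0 without, were known. The labels do not state a pairing; replicate differences of the arms correlated at 0.072 to 0.726 over the 5 times.

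The members, gene lists and rules were chosen with earlier results of these data known. Named genes were all that passed, the 8 with the largest smaller pair difference in each direction at a group mean of at least 50, 7 fixed genes, and up to 3 per list; 1 gene chosen this way is not reported here. edgeR 4.0.16 and DESeq2 1.42.0 were run on the recovered reads. The fit was tested on simulated data, where false calls made up a larger share than the threshold. Alternatives were other pseudocounts, filters, scalings, variance models and tools, the fit without the block, and libraries or times left out. The vehicle comparison, the contrasts of 48 h with 24 h and 72 h alone, and the histone and Tdpoz families were added after seeing the data.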

Additional observations from a re-analysis of the deposited data

Results flagged for a closer look

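The effect of JNKi at 48 h was compared with its effect at other times, and 3 genes differed in limma with the block. Mybpc3 differed from the mean effect of the other 4 times by 1.94 on the log2 scale (SE 0.25, adjusted p 0.0192) and from the 24 h effect by 2.51 (SE 0.31, adjusted p 0.0150). Its log2 change was -1.15 at 24 h and 1.35 at 48 h, while the 3 later times had 0.0025, -0.47 and -0.73. At 24 h its libraries read 5.6 and 1.4 with DMSO and 2.2 and 0 with JNKi.

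Hspg2, perlecan, a heparan sulfate proteoglycan of basement membranes, differed between 48 h and 24 h by -0.82 (SE 0.11, adjusted p 0.0247). It read 4391 and 4377 with DMSO against 6611 and 6276 with JNKi at 24 h, and 14033 and 13904 against 12231 and 10998 at 48 h. The groups did not overlap at either time, and JNKi was the higher arm at 24 h and the lower at 48 h. Celsr2, a cadherin of the planar polarity family, differed by -0.61 (SE 0.09, adjusted p 0.0266). It read 6491 and 5572 against 8004 and 6999 at 24 h, and 9572 and 8410 against 8404 and 6362 at 48 h. These 3 genes are 0.0216% of those tested. Without the block the adjusted p values of Mybpc3, Hspg2 and Celsr2 for the difference between 48 h and 24 h were 0.768, 0.115 and 0.768, and none passed.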

How the results depend on the processing

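All 15 genes kept a positive log2 change in every setting run. They were selected on these libraries and were higher in both pairs, so nothing is read from that sign. The number that passed did not hold. The count was 15 with the block and 0 with no replicate block, 0 without the filter on low values, 0 without the intensity trend, and 0 with the 4 libraries of 48 h alone, with or without the block. It was 1 without the 72 h libraries, 8 without the 7 d libraries and 9 with a log2 change of at least 1. Leaving out 1 library of 48 h leaves 1 pair and gave 0 to 28 calls: 0 without replicate 2 of DMSO or of JNKi, 27 without DMSO replicate 1 and 28 without JNKi replicate 1, of which 14 and 15 were higher and 7 of the 15 genes were shared each time. The other settings gave 11 (edgeR) to 22 (robust variances). DESeq2 called 17, of which 13 were higher.

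For the 48 h effect against the mean of the other times the count of 1 became 0 with no replicate block, no filter, no trend, edgeR, or without the 72 h or the 7 d libraries. It became 3 with a minimum group mean of 50, robust variances, or without the 96 h libraries, 14 without the 24 h libraries and 15 with DESeq2. Leaving out 1 library of 48 h gave 0 to 8. The cause was not tested.

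With upper quartile scaling Mapk9 became 0.0031, Map4k4 0.0050 and Mcm4 0.0076. With 1 pair left, the sign turned for genes that had not passed: Mapk9 (-0.021 to 0.0056), Cdh2 (-0.082 to 0.0049), Vim (-0.10 to 0.036), Sox4 (-0.35 to 0.018), Junb (-0.046 to 0.0093), Map4k4 (-0.039 to 0.028), Mcm4 (-0.092 to 0.085), Ftl1 (-0.034 to 0.14), Wnt7b (-0.036 to 0.0069) and Egfr (-0.11 to 0.013). Ces2e rests on 3 against 15 reads and Tdpoz4 on 5 against 23; the intervals given cover counting error only, and replicates differed by more than that.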

Other observations

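Histone genes were looked at beyond the 3 that rose. Summed over all 63 genes with symbols starting Hist, which needs no limit on low values, the level at 48 h was 1596.1 and 2063.7 normalized reads with DMSO and 2332.9 and 2962.5 with JNKi, with no overlap. This sum includes the 3 genes that passed, so its separation at 48 h partly repeats those calls. Hist1h1c was its largest part, with 537.9 and 889.0 against 925.1 and 1307.7 at 48 h. The sum was 1437.2 and 1340.5 against 2028.2 and 1813.8 at 24 h, without overlap, and 3199.3 and 1813.4 against 4168.4 and 2638.3 at 72 h, with overlap. It was 4824.3 and 5129.5 against 6936.4 and 6473.3 at 96 h, without overlap, and 9346.4 and 7726.8 against 8148.7 and 8639.9 at 7 d, with overlap. Hist1h1c alone read 4578.1 and 3242.2 with DMSO and 2745.0 and 2783.5 with JNKi at 7 d. Of the 63 genes 15 met the limit of 10, and 3 of these met it only in the JNKi arm. Hist1h3d, Hist1h3c and Hist4h4, which did not meet it, had log2 changes of -0.61, -0.46 and -0.37. Summed over the 10 genes of the Zscan4 and Tdpoz families with Gm10696, the level was 128.3 and 61.2 with DMSO and 224.7 and 161.6 with JNKi, most of it from Gm10696. Of the 4 that met the limit, 3 did so only in the JNKi arm, and Zscan4a, which did not meet it, had a log2 change of -0.31. Both families were picked after their values were seen and carry no test, and reads of near-identical copies cannot be assigned with certainty.

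Targets of the aryl hydrocarbon receptor, a ligand-activated factor, were split. Tiparp read 3420 and 2463 normalized reads with DMSO and 5162 and 3635 with JNKi (log2 change 0.58, SE 0.16; limma adjusted p 0.267), and Cyp1b1 read 3767 and 2394 against 5407 and 2964 (limma adjusted p 0.429). Replicate 1 was the higher library in both arms for both genes. Of the 7 measured genes of the list, 3 were higher and 3 lower in both pairs, and the list median was -0.07 at 48 h beside 0.21, 0.39, 0.51 and -0.11 at the other times in order.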
